A study of Homo sapiens with 46 samples.

Results

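Respiratory chain assembly factors are proteins that build the complexes of the mitochondrial respiratory chain and are not part of the finished enzymes. They hold newly made subunits, insert them into the inner membrane, and deliver heme, copper, flavin or iron-sulfur clusters before the modules of a complex are joined. All of these factors are encoded in the nucleus, whereas the subunits around which complexes I, III, IV and V are built are mostly encoded in mitochondrial DNA (mtDNA). The 52 genes described here were chosen by their symbols. Each symbol was found among the 58735 genes listed, and the 52 genes were all among the 20272 that passed the filter on low counts. They comprised 16 factors of complex I, 3 of complex II, 6 of complex III, 21 of complex IV, 3 of complex V and 3 that serve several complexes.

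The cells were HEK293T, a human embryonic kidney line, wild type in genotype, grown in DMEM with glucose, fetal calf serum, glutamine and pyruvate. The study's methods name the line HEK293-Flp-In T-Rex and also list uridine in the medium. In 11 treatments the cells received EndoPorter, a delivery peptide, with a chimera at 2 µM for 48 h. Each chimera joined the yeast pCox4 presequence, which directs import into mitochondria, to a morpholino complementary to 1 mtDNA-encoded mRNA, so that its translation is blocked. The mRNAs were ND1, ND2, ND3, ND4L and ND5 of complex I, CYTB of complex III, COX1, COX2 and COX3 of complex IV, and ATP6 and ATP8 of complex V. Control cells were given the presequence without a morpholino. A comparison with control thus cannot tell blocked translation of a subunit from the presence of any morpholino. Poly(A) RNA of 46 libraries was sequenced, with 4 biological replicates of a condition, except for COX2 and ND2 with 3. Replicates 1 and 2 formed batch 1, and replicates 3 and 4 formed batch 2, prepared on other days with other reagents. Each library was made from bulk RNA, which cannot tell fewer cells with an mRNA from less of it per cell. The question was whether the levels of the factors' mRNAs differ once the synthesis of a subunit they assemble is blocked. All 11 comparisons used the same 4 control libraries, so a control value that was high or low entered each of them.

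Total counts per library ranged from 18876395 to 28121898, apart from COX3 replicate 4 with 100698084. The targeted mRNAs were measured after poly(A) selection and do not report on translation. MT-CO1, MT-CO3 and MT-CYB fell in their own treatments (log2 fold change -1.33 for MT-CO1, edgeR adjusted p = 2.25e-21). MT-ND1, MT-ND2 and MT-ND3 rose in theirs (1.02 for MT-ND2, adjusted p = 9.01e-17), and the other 5 did not pass the threshold of 0.05. The markers VIM, LIN28B, CDH2 and PAX2 were counted in every library, and PTPRC, HBB, PECAM1, ALB and CKM, markers of other tissues, stayed at or below 0.812 CPM (counts scaled to the size of the library). Of these, PECAM1 and CKM were also counted in every library. NEFM, a marker fixed for the HEK293 line, was low, with 0.451 to 2.00 CPM, a range that overlapped that of the other-tissue markers.

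Assembly factor mRNAs were mostly more abundant in control cells than the median tested gene. Per kilobase of gene model, their median level was 11.27 CPM, against 2.76 CPM for all tested genes, and 43 of the 52 lay above that median. The highest were HIGD1A, a complex IV factor, at 54.6 ± 2.88 CPM per kb (SD, n = 4), and COA6, which takes part in copper delivery to COX2, at 44.8 ± 5.13. Then came NDUFAF8, the partner of the hydroxylase NDUFAF5, at 33.97 ± 4.16, NDUFAF2, which acts late in complex I assembly, at 30.3 ± 2.52, and the membrane insertase OXA1L at 30.1 ± 1.04. The libraries of COA6 were all above those of NDUFAF8, and the ranges of NDUFAF8, NDUFAF2 and OXA1L overlapped each other. The ranges of HIGD1A and COA6 overlapped across libraries, but within each control library HIGD1A was the higher. The lowest were the copper chaperone SCO2 at 0.540 ± 0.228 CPM per kb and COX20, which holds COX2 during its insertion, at 0.740 ± 0.127. PET117 at 1.35 ± 0.356 and CMC1, a COX1 stabilising factor, at 1.47 ± 0.0718 came next, and the libraries of SCO2 overlapped those of COX20, as those of PET117 did those of CMC1. Within complex I, the factors of the membrane-bound MCIA complex ranged from TIMMDC1 at 27.9 to TMEM186 at 4.52 CPM per kb.

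**Figure D1:**
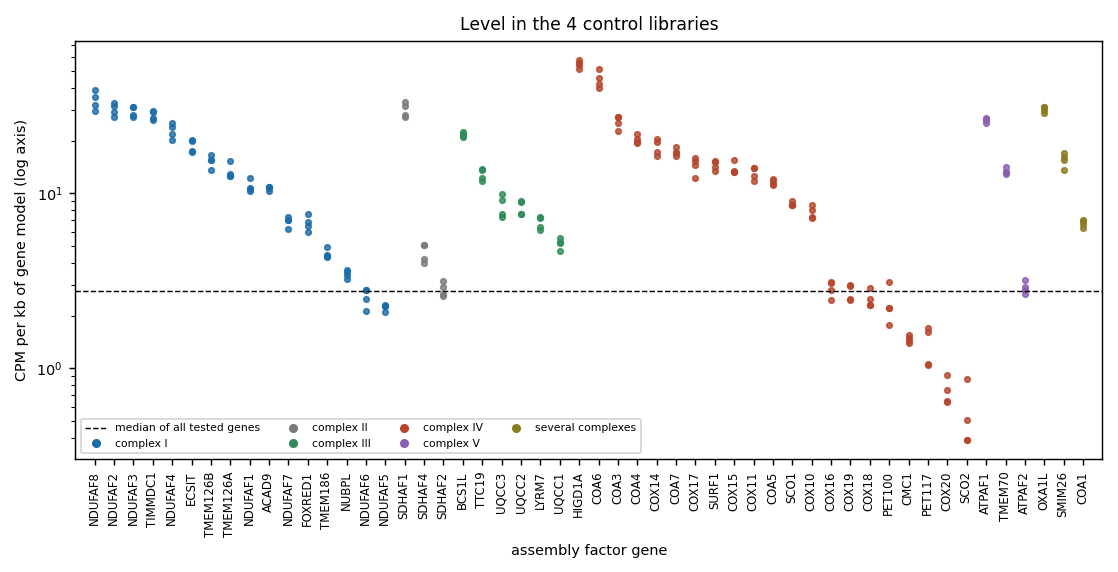
Each point is 1 of the 4 control libraries, with CPM per kilobase of gene model on a log axis and the 52 assembly factor genes along the horizontal axis, coloured by complex. The dashed line is the median of the tested genes (2.76), and 43 of the 52 gene means lie above it, from HIGD1A at 54.6 down to SCO2 at 0.540.

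Some of these counts may include reads of other genes, or lack reads that fall in shared bases. In 11 of the 52, over 10% of the exonic bases were shared with another gene model on the same strand. The share was highest in SCO2 (83.9%, with its own second model) and PET117 (62.4%, with KAT14). In 14 this held for a gene on the opposite strand, most in COX20 (72.0%, with HNRNPU). SCO2, COX20 and PET117 were also the factors with the lowest levels, and whether the overlap lowered their counts was not tested. Whether strand was used in counting is not given in the sources used here. SCO2 appeared under 2 overlapping gene models on chromosome 22, of which the second held 42 counts over all libraries and was not tested. HIGD1A has 17 pseudogenes among the listed genes.

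RefSeq promoter windows (GRCh38.p14, 250 bases before to 50 bases after the start) were found for 46 of the 52 genes, with 61 windows in all. The letters CCGGAAG on either strand, the core of the site of GABPA, a factor known for binding promoters of nuclear mitochondrial genes, stood in a window of 19 of the 46 genes (41.3%) and of 12.2% of the 27305 genes of the table. GCATGCGC, part of the site of NRF1, stood in 7 of 46 (15.2%) against 3.68%, and AAGATGGCG, the core of the YY1 site, in 4 of 46 (8.70%) against 2.14%. By window, the shares were 34.4% against 10.3%, 13.1% against 3.05% and 8.20% against 1.75%. The genes of the table were not limited to those counted in these cells, whereas the 52 factors were all counted. How often the letters stand in promoters of other counted genes was not tested. No searched string contains another, and a match describes the sequence and does not show a bound site. Stretches from the windows of COX17, the copper chaperone of complex IV, COX18, which inserts COX2, and TMEM186, a complex I factor described below, show the NRF1 letters in capitals. They lie before the RefSeq start, in genes on the minus strand, at chr3:119677503-119677530, chr4:73069744-73069771 and chr16:8797660-8797687. In the gene model used for the counts COX18 starts at 73069755, which lies within its stretch.
COX17: gcctccttgcGCATGCGCtgaagggggc
COX18: aggcaggcgcGCATGCGCtttatgcccg
TMEM186: gtacattcgaGCATGCGCtcttaggggt

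No assembly factor mRNA passed an adjusted p of 0.05 in any of the 11 treatments by edgeR's quasi-likelihood test with Benjamini-Hochberg adjustment over the 20272 genes. The smallest adjusted p was 0.0757, for NDUFAF2 after silencing of CYTB. Of the 572 log2 fold changes, 540 (94.4%) were smaller than 0.25 in size. The 95% interval lay within ±0.5 for 534 and within ±1 for 564, and for 51 of the 52 genes all 11 intervals lay within ±1. The exception was SCO2, whose control level was 0.552 ± 0.233 CPM. The bounds of 0.5 and 1 state where the intervals lay and are not limits of detection. For single treatments the median SE over the factors was 0.075 (COX3) to 0.083 (COX2). Values within the interval of a factor were not told apart. DESeq2 with the batch term passed 2 of the 531 values to which it gave an adjusted p, NDUFAF2 after CYTB and FOXRED1 after COX2, and none in the pooled comparisons. That was 0.377% of the factor values, against 0.760% of the values of all genes. Of the other settings, DESeq2 on batch-corrected counts passed 3 (0.584%, against 0.888%), batch 2 alone 1 (0.175%, against 0.102%) and a fit of only the libraries compared 5 (0.876%, against 0.828%). Without the filter on low counts edgeR passed 11 (1.92%, against 0.416%). There 47354 genes were tested, many of them below the filter that all 52 factors passed, so these 2 shares are over unlike sets. With a minimum mean of 10 CPM edgeR passed 0 of 495 factor values, against 0.640% of all values.

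**Figure D2:**
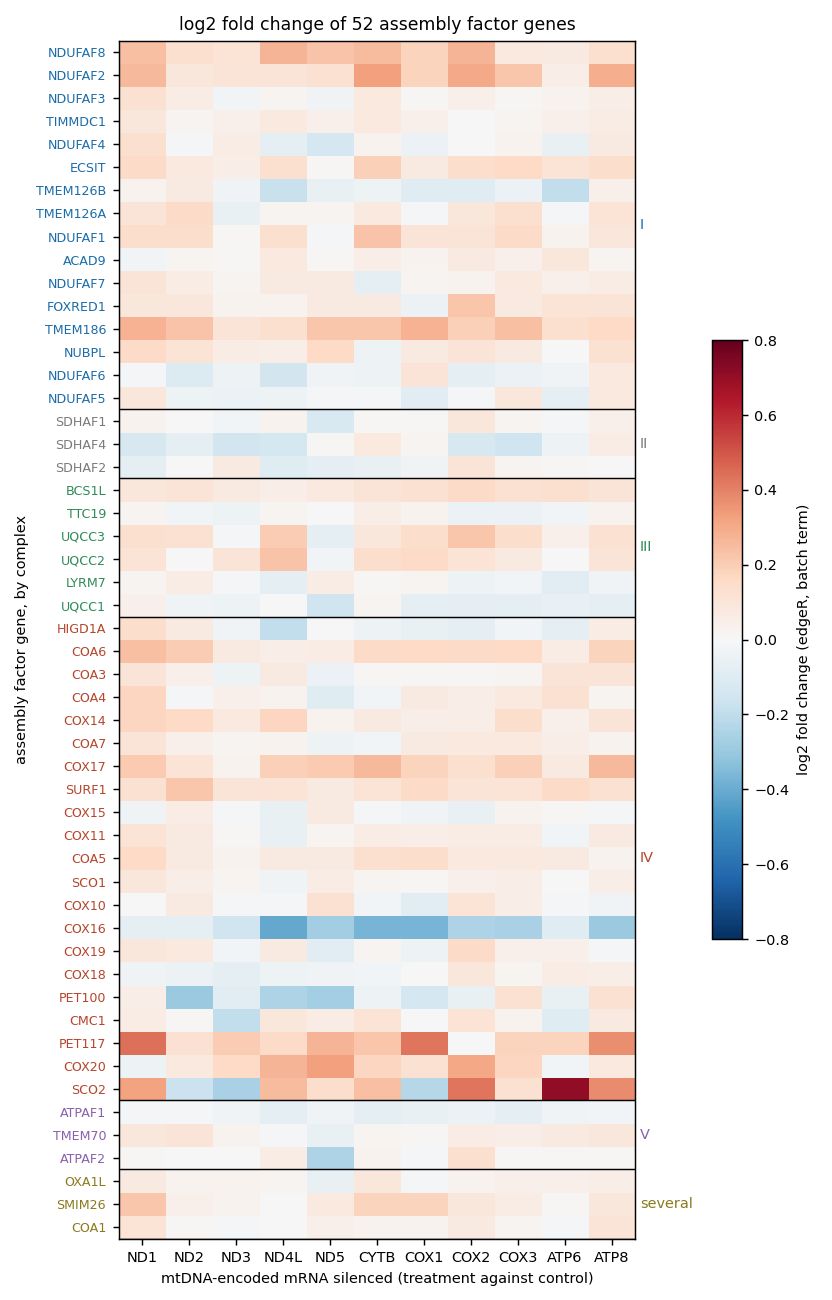
Rows are the 52 assembly factor genes grouped by complex, columns the 11 treatments, and the colour is the log2 fold change against control from edgeR with a batch term. Most cells are pale, with 540 of 572 values below 0.25 in size; SCO2 after ATP6, at 0.71 and with an interval reaching 1.44, is the darkest red cell, and COX16 after ND4L, at -0.41, the darkest blue.

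An unadjusted p below 0.05 was reached by 62 of the 572 values (10.8%), against 9.79% of all 222992 gene by treatment values, so the share of factors was near the background. Of the 62, 53 were higher and 9 lower than control (9.27% and 1.57% of the values), whereas over all genes 5.38% were higher and 4.41% lower. By treatment, with the share of all genes at an adjusted and at an unadjusted p below 0.05, the counts were as follows. After silencing of ND1, 0 of 52 factors passed the adjusted threshold (0.0888% of all genes) and 12 the unadjusted one (11.7%). For ND2 these were 0 (0.0247%) and 3 (4.91%), and for ND3 0 (0.00987%) and 0 (3.31%). For ND4L they were 0 (0.148%) and 6 (14.1%), and for ND5 0 (0.158%) and 7 (9.30%). CYTB gave 0 (0.548%) and 8 (13.7%). COX1 gave 0 (0.0543%) and 6 (7.44%), COX2 0 (0.469%) and 6 (13.6%), and COX3 0 (0.306%) and 6 (10.4%). ATP6 gave 0 (0.00987%) and 3 (9.08%), and ATP8 0 (0.0641%) and 5 (10.2%). The largest excess over the background share was that of ND1, where all 12 factors were higher than control (6.47% of all genes at this threshold and higher).

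The median log2 fold change of the 52 factors was between 0.010 (ND3) and 0.094 (ND1), while the median of all tested genes lay between -0.003 and 0.004. It was 0.094 for ND1, 0.077 for COX2, 0.071 for ATP8, 0.058 for ND2, 0.055 for COX3 and 0.051 for CYTB. It was 0.029 for ND4L, 0.022 for COX1 and for ATP6, 0.011 for ND5 and 0.010 for ND3. Higher than control were 43 of the 52 after ND1 (82.7%), where 49.1% of all genes were higher, and 44 after ATP8 (84.6%), where 50.6% were. After ND3 and ND5 the number was 28 (53.8%), against 51.0% and 50.3%. The 52 factors together made up 2087.6 ± 43.7 CPM in control (SD, n = 4), 2226.4 ± 74.1 after ND1 and 2100.5 ± 24.9 after ND5. The libraries of ND1 spread as widely as the treatments did. For ND1, the 4 library medians ran from 0.027 to 0.142, and for control from -0.014 to 0.014.

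**Figure D3:**
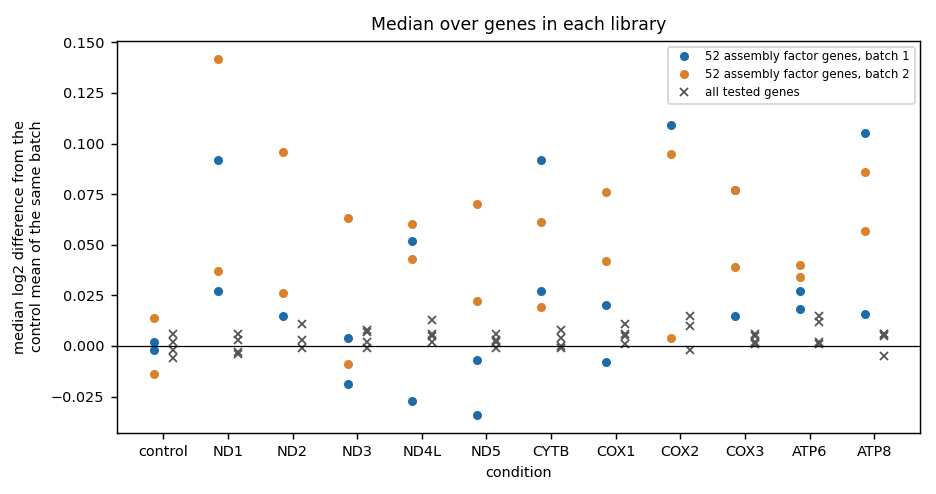
Each circle is the median over the 52 assembly factor genes in 1 library, as the log2 difference from the mean of the control libraries of the same batch, coloured by batch, and each cross is the same median over all 20272 tested genes. The factor medians run from -0.034 (ND5) to 0.142 (ND1), and the 4 control libraries from -0.014 to 0.014.

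Complex I is assembled around ND subunits, and its factors did not pass the test when those subunits' mRNAs were silenced. Pooled over the 5 ND treatments, 0 of 52 factors were called (0.0395% of all genes) and 5 had an unadjusted p below 0.05 (8.05%). For the 16 complex I factors the median was 0.058, and 3 of 16 had an unadjusted p below 0.05. The difference between the ND treatments and the other 6 was called for 0 of 52 (0.104% of all genes), with 3 at an unadjusted p below 0.05 (7.52%). Its median over the complex I factors was -0.011.

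TMEM186 belongs to the MCIA complex, which builds the part of the membrane arm around ND2. Its gene (ENSG00000184857) lies at chr16:8780384-8797648 on the minus strand, and 30.6% of its exonic bases are shared with genes on the opposite strand. In the control libraries TMEM186 was at 8.65, 8.81, 8.56 and 9.75 CPM. After silencing of ND1 it was at 12.27, 11.43, 10.27 and 9.48, and after silencing of COX1 at 9.80, 12.41, 12.01 and 9.20. Each ND1 and COX1 library was above the control mean of its batch, and both groups overlapped the control group. The log2 fold change was 0.28 after ND1 (SE 0.10, 95% interval 0.08 to 0.48, adjusted p = 0.222) and 0.28 after COX1 (0.08 to 0.49, adjusted p = 0.505). Over the treatments, which share their controls, it ran from 0.10 (ND3) to 0.28, and the mean of the 11 was 0.20 (0.04 to 0.35, adjusted p = 0.259).

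Among the other MCIA factors, NDUFAF1 was at 0.23 after CYTB (SE 0.086, 95% interval 0.06 to 0.40, adjusted p = 0.205), with 23.0 ± 1.61 CPM against 19.6 ± 1.52 (SD, n = 4 each). All 4 CYTB libraries were above the control mean of their batch, and the difference was 0.23 in both batches. ECSIT, which also acts in immune signalling, was at 0.19 after CYTB (SE 0.068, adjusted p = 0.169), with 50.4 ± 6.47 CPM against 44.1 ± 3.68. TMEM126B, needed for the ND2 module, was at -0.20 after ATP6 (-0.36 to -0.05, adjusted p = 0.440) and -0.18 after ND4L. Its ATP6 libraries were at 36.44, 32.54, 31.43 and 27.72 CPM, against 39.75, 37.55, 37.31 and 32.72 in control. All 4 were below the control mean of their batch, and the groups overlapped.

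NDUFAF2 joins complex I late, before the module that binds NADH. The gene (ENSG00000164182) lies at chr5:60945129-61153037 on the plus strand, with no exonic bases shared with another gene. It was at 29.72, 33.54, 27.76 and 32.15 CPM in control and at 46.61, 41.57, 35.46 and 31.86 CPM after silencing of CYTB. The libraries of batch 1 were far above the controls, and replicate 4 of batch 2 lay within the control range. Its log2 fold change was 0.33 (SE 0.092, 95% interval 0.14 to 0.51, adjusted p = 0.0757), with a difference of 0.48 in batch 1 and 0.17 in batch 2. Without CYTB replicate 1 it was 0.27 (adjusted p = 0.372), and with any other library of the comparison left out it was between 0.27 and 0.40. NDUFAF2 was at 0.30 after COX2 (adjusted p = 0.147), where the 3 libraries were at 47.08, 27.49 and 37.20 CPM. After ATP8 it was at 0.29 (adjusted p = 0.204), and the mean of the 11 was 0.18 (0.04 to 0.32, adjusted p = 0.232).

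FOXRED1, an oxidoreductase needed for complex I assembly, was at 38.91, 34.07, 43.01 and 36.60 CPM in control. After COX2 it was at 42.85, 48.33 and 43.80 CPM, and the 3 libraries were above the control mean of their batch but overlapped the control group. This was a log2 fold change of 0.22 (SE 0.068, 95% interval 0.09 to 0.36, adjusted p = 0.106), with 0.23 in batch 1 and 0.21 in batch 2. NDUFAF8, which supports NDUFAF5, was at 0.27 after ND4L (SE 0.11, adjusted p = 0.244), with 0.02 in batch 1 and 0.52 in batch 2. Its ND4L libraries were at 46.33, 57.85, 58.02 and 63.61 CPM, against 53.81, 48.66, 40.83 and 43.66 in control.

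The 3 complex II factors serve a complex with no mtDNA-encoded subunit. SDHAF1 and SDHAF4, chaperones of the iron-sulfur and flavin subunits, and SDHAF2, which supports flavin attachment, had no unadjusted p below 0.05 in any treatment. The log2 fold change of SDHAF1 ran from -0.12 (ND5) to 0.09 (COX2), and that of SDHAF4 from -0.16 (COX3) to 0.08 (CYTB). The means of the 11 were 0.01 (-0.10 to 0.11) and -0.06 (-0.25 to 0.14).

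Cytochrome b is the core around which complex III is built, and the 6 complex III factors had a median of 0.069 after silencing of CYTB, with none at an unadjusted p below 0.05. Across all 52, the difference between CYTB and the other treatments was called for 0 (0.0592% of all genes), with 4 at an unadjusted p below 0.05 (7.26%), none of them a complex III factor. BCS1L, the AAA protein that inserts the Rieske subunit, was at 75.68, 73.78, 71.41 and 70.88 CPM in control and at 88.10, 74.55, 78.35 and 71.87 after CYTB. After CYTB the log2 fold change was 0.10 (-0.01 to 0.22, adjusted p = 0.452), and the mean of the 11 was 0.10 (0.02 to 0.19, adjusted p = 0.312). UQCC1, which acts with UQCC2 on cytochrome b, was at 0.02 after CYTB (-0.11 to 0.15) and at -0.16 after ND5 (-0.30 to -0.03, adjusted p = 0.379). UQCC2 was at 43.30, 43.49, 47.07 and 47.12 CPM after ND4L, all above the controls of 42.19, 41.56, 35.78 and 35.51. Its log2 fold change was 0.23 (0.07 to 0.39, adjusted p = 0.180), with 0.05 in batch 1 and 0.40 in batch 2.

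Complex IV is built around COX1, to which heme and copper are added while it is held by COX14, COA3 and CMC1, and COX2 is inserted and given copper separately. Pooled over the COX treatments, 0 of 52 factors were called (0.750% of all genes), and 8 had an unadjusted p below 0.05 (13.2%). The 21 complex IV factors had a median of 0.057, with 2 higher and 1 lower at an unadjusted p below 0.05. Against the other treatments, 0 of 52 were called (0.0543% of all genes), and none of the 52 reached an unadjusted p below 0.05 (4.98%).

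COX14, COA3 and CMC1 did not differ from control beyond the error after silencing of COX1. COX14 (ENSG00000178449) was at 21.03, 21.95, 17.47 and 18.51 CPM in control and at 24.36, 21.23, 19.35 and 16.82 after COX1. The libraries of batch 1 were above those of batch 2 in both groups, and the groups overlapped. The log2 fold change was 0.05 (-0.17 to 0.26, adjusted p = 0.954), and its highest value over the treatments was 0.17, after ND1 (-0.04 to 0.38) and ND4L (-0.04 to 0.38). COA3 was at 49.94, 50.22, 48.34 and 47.97 CPM after COX1, against 52.08, 52.49, 48.15 and 43.47 in control, a log2 fold change of 0.01 (-0.12 to 0.13). CMC1 was at 14.18, 13.26, 14.43 and 20.36 CPM after COX1, where replicate 4 stood apart, and its value over the treatments ran from -0.20 (ND3, -0.42 to 0.03) to 0.11 (CYTB, -0.11 to 0.34).

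The heme A factors COX10, COX15 and SURF1 are known for their part in making heme A and adding it to COX1. SURF1 was at 28.38, 28.74 and 31.51 CPM after ND2, above the controls of 26.48, 26.80, 23.46 and 24.86. Its log2 fold change was 0.22 (0.06 to 0.38, adjusted p = 0.998), with 0.09 in batch 1 and 0.32 in batch 2. After COX1 it was 0.15 (0.00 to 0.30, adjusted p = 0.671). COX10 and COX15 had no unadjusted p below 0.05.

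Copper for complex IV is passed on by COX17, COX11, COX19, SCO1, SCO2, COA6 and COX16. COA6 (ENSG00000168275, chr1:234373456-234384049, plus strand) was at 57.54, 64.79, 50.08 and 52.80 CPM in control and at 64.99, 75.26, 63.55 and 62.24 after ND1. All 4 were above the control mean of their batch, and the groups overlapped, since batch 1 was higher in both. This gave a log2 fold change of 0.24 (SE 0.069, 95% interval 0.10 to 0.38, adjusted p = 0.115), with 0.20 in batch 1 and 0.29 in batch 2. COX17 was at 42.69, 37.44, 33.28 and 37.22 CPM after CYTB, against 33.09, 31.47, 34.39 and 26.66 in control. Its log2 fold change was 0.26 (0.07 to 0.46, adjusted p = 0.190).

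COX16 had the lowest mean over the treatments, at -0.24 (-0.45 to -0.03, adjusted p = 0.336). The gene (ENSG00000133983) lies at chr14:70325081-70359731 on the minus strand and shares 36.0% of its exonic bases with the readthrough gene SYNJ2BP-COX16. It was at 5.23, 5.69, 4.60 and 5.82 CPM in control. After ND4L it was at 3.66, 4.89, 3.96 and 3.63 CPM, a log2 fold change of -0.41 (SE 0.15, -0.70 to -0.11, adjusted p = 0.192). After CYTB it was at 4.42, 3.60, 3.95 and 4.49 CPM, all below the control libraries (-0.37, -0.67 to -0.08, adjusted p = 0.226). After ND1 it was at 4.79, 5.13, 5.33 and 5.13 CPM, within the control range.

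PET100 and PET117 are small factors of complex IV, counted at low levels. PET100 was at 4.35, 4.28 and 3.95 CPM after ND2 and at 4.92, 3.92, 6.93 and 4.88 in control, a log2 fold change of -0.30 (-0.69 to 0.09, adjusted p = 0.998). Without control replicate 3 it was -0.13. After COX1 PET100 was at 3.06, 5.71, 4.28 and 5.61 CPM, overlapping the control group. PET117 was at 1.20, 1.94, 1.19 and 1.85 CPM in control and at 2.57, 1.83, 2.12 and 1.85 after ND1. Its log2 fold change was 0.44 (-0.01 to 0.89, adjusted p = 0.446), or 0.28 without ND1 replicate 1, and the mean of the 11 was 0.23 (-0.12 to 0.58). COA4 was at 0.17 after ND1 (0.05 to 0.30, adjusted p = 0.228) and at -0.10 after ND5 (-0.23 to 0.02, adjusted p = 0.641).

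**Figure D4:**
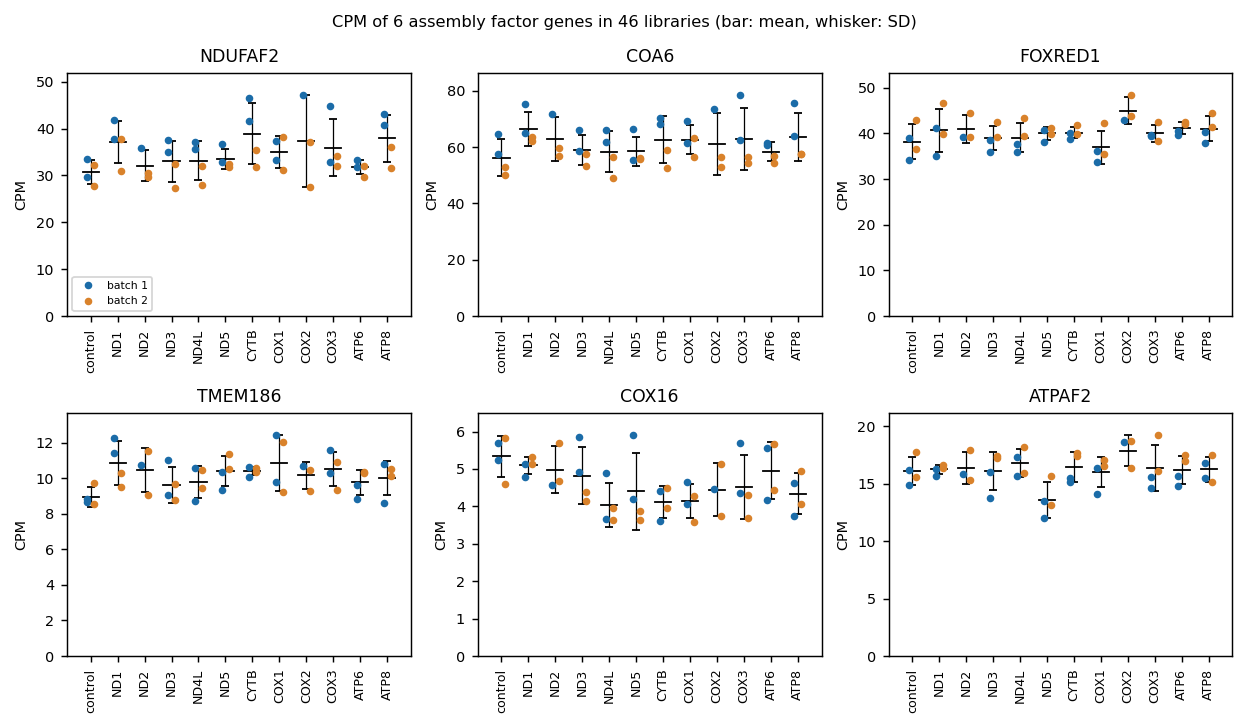
CPM of NDUFAF2, COA6, FOXRED1, TMEM186, COX16 and ATPAF2 in the 46 libraries, by condition, with points coloured by batch, the bar at the mean and the whisker the SD (n = 4, or 3 for COX2 and ND2). Batch 1 stands above batch 2 for NDUFAF2 and COA6 in most conditions, and the treated groups overlap the control group in the comparisons with the smallest p, NDUFAF2 after CYTB (31.86 to 46.61 against 27.76 to 33.54) among them.

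ATP synthase is assembled with ATPAF1 and ATPAF2, which hold the beta and alpha subunits, and TMEM70, which supports the ring of subunit c. After silencing of ATP6 and ATP8 pooled, 0 of 52 factors were called (0.128% of all genes) and 4 had an unadjusted p below 0.05 (11.4%), none of them a complex V factor. Against the other treatments, 0 of 52 were called (0.0197% of all genes), with 2 at an unadjusted p below 0.05 (4.91%). ATPAF1, at 148.7 ± 4.16 CPM in control the factor with the most counts, had a log2 fold change of -0.03 after ATP6 (-0.12 to 0.05) and -0.02 after ATP8 (-0.11 to 0.07). TMEM70 was at 0.07 (-0.05 to 0.18) and 0.09 (-0.03 to 0.20). ATPAF2 was lowest after ND5, at 13.48, 11.98, 13.14 and 15.67 CPM against 14.86, 16.22, 17.77 and 15.63 in control. All 4 were below the control mean of their batch, and replicate 4 reached into the control range. ATPAF2 thus had a log2 fold change of -0.25 (SE 0.080, -0.41 to -0.09, adjusted p = 0.233).

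Of the factors that serve several complexes, OXA1L inserts mtDNA-encoded subunits into the inner membrane. Its log2 fold change ran from -0.06 (ND5, -0.15 to 0.04) to 0.09 (CYTB, 0.00 to 0.18), and the mean of the 11 was 0.03 (-0.04 to 0.10, adjusted p = 0.776). SMIM26 was at 18.63, 22.47, 21.46 and 17.15 CPM after ND1, against 18.54, 17.10, 17.67 and 14.87 in control. All 4 were above the control mean of their batch, with a log2 fold change of 0.22 (0.01 to 0.44, adjusted p = 0.384). After COX1 SMIM26 was at 21.06, 19.61, 16.59 and 20.31 CPM, each also above the control mean of its batch, and the interval reached 0.4. The COX1 and control groups overlapped, and only ND1 gave SMIM26 an unadjusted p below 0.05.

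Taking the mean of the 11 treatments against control, 0 of 52 factors were called (0.261% of all genes), and 9 had an unadjusted p below 0.05 (11.9%). These were TMEM186, NDUFAF2, NDUFAF8, ECSIT, COX17, COA6, SURF1 and BCS1L, 8 factors that were higher (6.55% of all genes at this threshold and higher), and COX16, which was lower. The median over the 52 was 0.038, against -0.001 over all genes. A test for any difference among the 12 conditions called 0 of 52 (0.493% of all genes), with 5 at an unadjusted p below 0.05 (12.2%), NDUFAF2 having the smallest (adjusted p = 0.219).

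**Figure D5:**
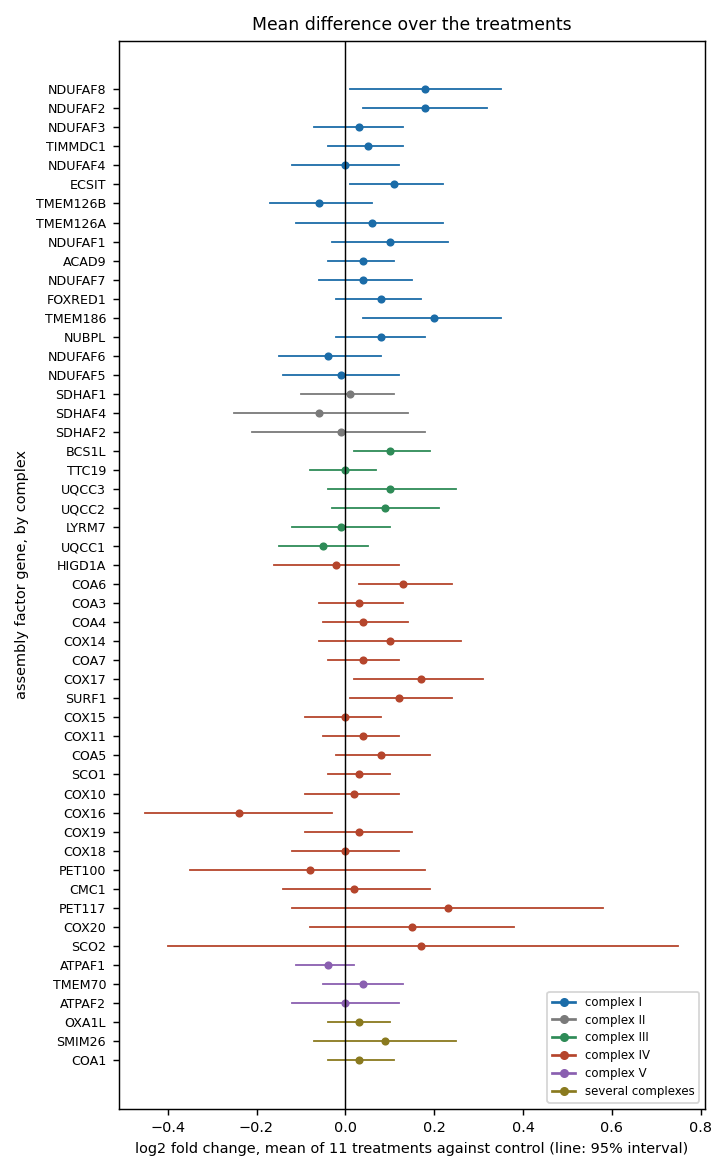
Points are the log2 fold change of the mean of the 11 treatments against control for each of the 52 assembly factor genes, and lines the 95% interval, coloured by complex. The intervals of 8 factors lie above 0 and that of COX16 (-0.45 to -0.03) below it, and the widest is that of SCO2; none passed an adjusted p of 0.05.

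More factors passed the test between the batches than in any treatment. The batch comparison drew on all 46 libraries, and its median SE over the factors was 0.032. For single treatments the median SE was 0.075 (COX3) to 0.083 (COX2), so the numbers of calls are not comparable. Between batch 2 and batch 1, 29 of the 52 factors were called, against 57.1% of all genes, so the total share was near the background. Its split by direction was not: 9 of the 29 were higher and 20 lower. Over all genes, 5919 of the 11585 called were higher (29.2% of the tested genes). COX20, with the opposite-strand overlap given above, was higher in batch 2 by 0.45 on the log2 scale (SE 0.063, adjusted p = 2.14e-08). COX14 was lower (log2 fold change -0.33, SE 0.044, adjusted p = 7.31e-09), and so were COA6 (-0.23) and NDUFAF2 (-0.23). TMEM186 was at -0.01 (-0.10 to 0.07).

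Other genes of the pathway were described in the same way. Of 21 further assembly factors tested, 0 passed in any comparison of treatments by edgeR. At an unadjusted p below 0.05 there were 8 after ND1 (11.7% of all genes), and 0 after ND2 (4.91%), after ND3 (3.31%) and in the comparisons of COX (4.98%) and CYTB (7.26%) with the other treatments. The remaining comparisons of treatments gave 2 to 5. Of 78 nuclear-encoded subunits, NDUFS6 was higher after ND4L (0.53, SE 0.11, adjusted p = 0.0188), where 0.148% of all genes were called. In the pooled COX treatments NDUFS6 (0.36, adjusted p = 0.0412) and NDUFB9 (0.22, adjusted p = 0.0216) were higher, where 0.750% of all genes were called. NDUFB9 was higher in the mean of the 11 (0.19, SE 0.046, adjusted p = 0.0469), where 0.261% of all genes were called. After ND1 the medians were 0.139 for the further factors and 0.167 for the subunits, beside 0.094 for the 52 factors and -0.003 for all genes. ND1 was the treatment with the highest median of the 52 factors, and the medians of these lists are given for it alone.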

How the data were processed

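Poly(A) RNA-seq libraries (46, in 12 conditions) were analysed from the table of gene counts that the authors deposited. The deposited values are whole-number read counts per gene, not normalized, with GENCODE 29 gene models. The build per the labels' processing notes is GRCh38.p12. Aligner, counter and use of strand are not given in the sources used here. The submitters' processing notes name R 4.3.0, DESeq2 1.40.2 and limma 3.56.2. Genes were kept by edgeR's filterByExpr with a minimum count of 10 (20272 of 58735), normalized by TMM, and fitted in 1 model over all libraries with condition and batch by edgeR 4.0.16 quasi-likelihood (R 4.3.3), with Benjamini-Hochberg adjustment over all tested genes. CPM were computed on TMM library sizes, and 95% intervals from the fitted SE. Depth was 18876395 to 100698084 counts per library, so the spread between replicates limits precision for most factors. P-values measure the spread between replicates that the study calls biological.

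The members and gene lists were chosen with earlier results of these data known. Factors were described individually where the study's proteomics names them, where they had the smallest p of a treatment or of the test over conditions in their complex, or where they had the highest or lowest mean over treatments of their complex. COX17, ECSIT, NDUFAF1, NDUFAF8, HIGD1A, NDUFB9 and NDUFS6, and the factors named for their level, were named after their values were seen. Replicate numbers mark a shared batch: deviations of same-numbered control and treated libraries correlated at 0.116 to 0.329 (42 pairs), and at -0.074 to 0.03 once the batch was removed. Alternatives used DESeq2 1.42.0, also on counts corrected with limma 3.58.1, other normalization and filters, a replicate block, single batches and each library left out. The script was tested on simulated data. The sequences targeted by the chimeras are not reported here.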

Additional observations from a re-analysis of the deposited data

Results flagged for a closer look

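In groups of 4 libraries, values standing apart from the rest of their group by Dixon's criterion were found in 14 of 249 groups (5.62%), and chance gives about 1 in 20. High values were CMC1 after COX1 in replicate 4 (20.36 CPM, the others 13.26 to 14.43), SMIM26 after CYTB in replicate 1 (25.65, 16.05 to 17.68), NDUFAF2 after COX3 in replicate 1 (44.83, 31.96 to 34.14) and TMEM126B after ND4L in replicate 2 (36.82, 30.30 to 31.38). Further high values were SDHAF4 in replicate 4 after ND5 (8.22, 6.007 to 6.302) and after COX3 (6.628, 5.556 to 5.703), COA6 after ND5 in replicate 2 (66.41, 55.41 to 56.27) and SURF1 after ND1 in replicate 4 (31.47, 25.72 to 26.65). Low values were SDHAF1 after ATP8 in replicate 4 (31.35, 35.19 to 35.59), UQCC2 after ND1 in replicate 4 (37.99, 42.80 to 43.36) and UQCC1 after ND3 in replicate 4 (29.92, 35.13 to 35.79). COA4 after COX1 in replicate 1 (44.38, 48.39 to 49.12) and SURF1 after CYTB in replicate 3 (24.28, 28.11 to 28.60) were low too. The total count of COX3 replicate 4, 100698084, stood apart from 20027292 to 28121898 in the other COX3 libraries.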

How the results depend on the processing

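Calls appeared under some settings, and the cause was not tested. In each case the share of all genes with an adjusted p that was called under the same setting is given. Without the filter on low counts, factors called numbered 3 for ND1 (COA6, NDUFAF8 and NDUFAF2; 0.612% of all genes), 3 for CYTB (NDUFAF8, COX17 and NDUFAF2; 0.857%), 2 for COX2 (NDUFAF8 and NDUFAF2; 0.678%) and 2 for ATP8 (COX17 and NDUFAF2; 0.528%). There were also 1 for ND4L (NDUFAF8, 0.621%), 1 for the mean of the 11 (NDUFAF8, 0.676%), 1 for the pooled COX treatments (NDUFAF2, 0.811%) and 5 for any difference among conditions (HIGD1A, NDUFAF4, NDUFAF8, COX17 and NDUFAF2, 2.22%). Fitting only the libraries compared gave 2 for ND1 (COA6 and NDUFAF8; 1.58%), 2 for CYTB (NDUFAF2, adjusted p = 0.0202, and ECSIT; 2.71%) and 1 for COX2 (NDUFAF8, 1.89%). DESeq2 with the batch term gave 1 for CYTB (NDUFAF2, adjusted p = 0.0429; 2.37%) and 1 for COX2 (FOXRED1, 0.0472; 2.52%). On batch-corrected counts it gave 1 for CYTB (2.81%), 1 for COX2 (2.86%) and 1 for ND1 (COA6, 0.0434; 1.78%). Batch 2 alone gave 1 for ND4L (NDUFAF8, 0.52, adjusted p = 0.0272; 0.835%). The adjusted p of NDUFAF2 after CYTB was 0.0617 to 0.372 with single libraries left out, and 0 factors were called in the 46 such fits. Other size factors, no batch term and batch 1 alone called 0, too (0.177%, 0.0152% and 0.0257% of all gene by treatment values). So did removal of a gene length trend (0.188%) and drawing down COX3 replicate 4 (0.167%). A minimum mean of 10 CPM, with 45 factors in the fit, called 0 of 495 factor values, against 0.640% of all values. With the replicate block 0 factors were called (0.400% of all values) and no call changed (median for ND1 0.093).

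Medians moved in batch 1 alone, to 0.014 for ND2, -0.018 for COX1 and 0.004 for ATP6. With single libraries left out, the median for ND5 was -0.002 (without ND5 replicate 3) to 0.026 (without ND5 replicate 2) and so changed sign. It was 0.001 (without ND3 replicate 4) to 0.024 (without control replicate 3) for ND3, 0.005 (without ND4L replicate 3) to 0.057 (without ND4L replicate 1) for ND4L, 0.005 (without COX1 replicate 4) to 0.037 (without COX1 replicate 1) for COX1, and 0.011 (without control replicate 4) to 0.031 for ATP6. The lowest values were 0.037 for ATP8 (without ATP8 replicate 2), 0.043 for COX2 (without COX2 replicate 2) and 0.035 for ND2 (without control replicate 3). For CYTB, COX3 and ND1 they were 0.034, 0.040 and 0.069. Directions reversed for ATPAF1 after ND4L in batch 1 (0.010) and for TMEM70 after ND2 in batch 2 (-0.040). The low level of SCO2, PET117 and COX20 limits their precision.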
